A study of Papio anubis with 24 samples.

Results

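The miR-424, miR-503, miR-542 and miR-450 cluster was followed in baboon endometriosis through 7 of its mature miRNAs: hsa-miR-424-5p, hsa-miR-424-3p, hsa-miR-503-5p, hsa-miR-542-3p, hsa-miR-542-5p, hsa-miR-450a-5p and hsa-miR-450b-5p. They were picked out of the table by their names, and all 7 were found among the 2656 mature miRNAs of the deposited count table, of which 1143 had at least 1 count in any library. Small RNA libraries were made from an endometriotic lesion and the eutopic endometrium, the lining in its normal place in the uterus, of each of 12 female baboons (Papio anubis). The groups were spontaneous lesions and spontaneous eutopic endometrium (n = 4 each, from animals whose disease arose without intervention) and induced lesions and induced eutopic endometrium (n = 8 each, from animals inoculated in the peritoneal cavity with menstrual tissue and sampled 15 months later). No animal without endometriosis was among the 24 libraries, so every eutopic endometrium came from an animal with disease. Each library came from bulk tissue, in which fewer cells of a type and less RNA per cell cannot be told apart. Reads were matched to human miRNAs, and where the baboon sequence departs from that reference a member could be undercounted in every library alike.

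In the human genome these hairpins lie close together on the X chromosome and are thought to be processed from shared primary transcripts. Each hairpin can give a 5p and a 3p strand. One of them is usually loaded into the silencing complex and kept, while the other is mostly degraded. miR-424-5p and miR-503-5p carry seeds like that of the miR-15/16 family and in human and mouse cells repress cell cycle genes such as cyclin D1 and CDC25A. miR-542-3p represses survivin in human cells. In human endometrial stromal cells, miR-542-3p is known to fall during decidualization, the change that prepares the endometrium for an embryo. The miR-450 hairpins are less studied. Mature sequences and genome positions were not analysed here.

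Levels are given as CPM, a member's count relative to the total of its library and expressed on a common scale, each library adjusted by trimmed mean of M-values (TMM) factors over all 24 libraries. These values compare libraries; between miRNAs they also carry the unequal capture of different small RNAs during library making. hsa-miR-424-5p was by far the most abundant member, with a mean over the 24 libraries of 1029 CPM and rank 66 among all mature miRNAs. hsa-miR-424-3p followed at 155.9 CPM (rank 123) and hsa-miR-450b-5p at 61.6 CPM (rank 171). hsa-miR-542-3p averaged 29.8 CPM, hsa-miR-450a-5p 23.4 CPM, hsa-miR-503-5p 9.30 CPM and hsa-miR-542-5p 4.67 CPM. No member was at 0 in any library. The lowest raw counts were 658 for hsa-miR-424-5p but only 5 for hsa-miR-503-5p and for hsa-miR-542-5p, so the values of these last 2 are the least precise. All 7 passed the filter on low values in each comparison.

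**Figure D1:**
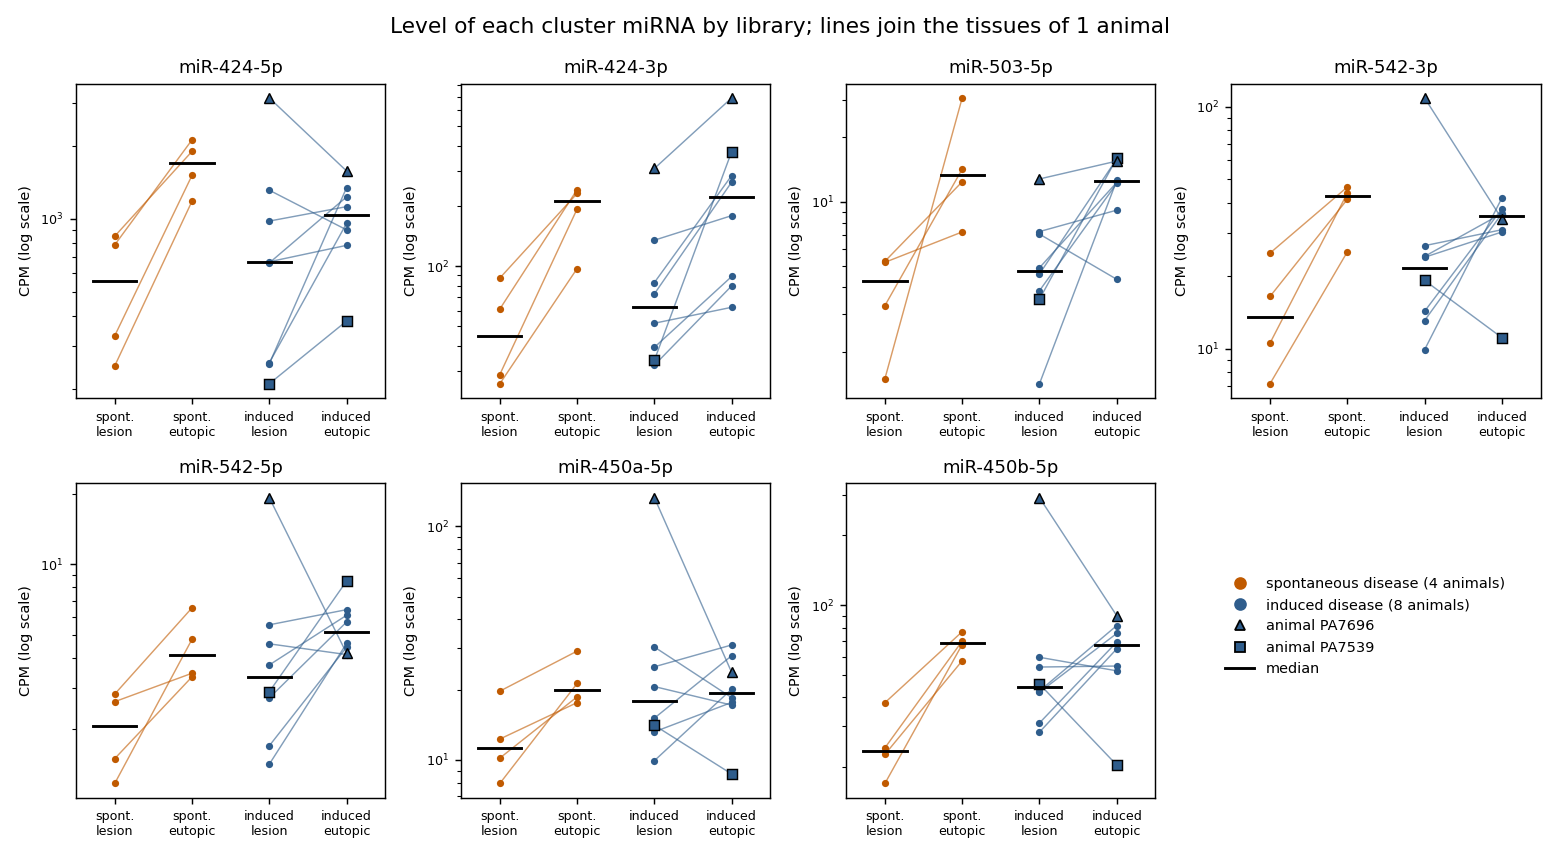
Level of each member in the 24 libraries (CPM after TMM scaling, log axes), with the lesion left of the eutopic endometrium within each disease, lines joining the tissues of 1 animal and black bars at the medians. In spontaneous disease every line runs upward from lesion to eutopic endometrium for all 7 members, whereas the induced lesion of animal PA7696 (triangles) lies above the other 7 induced lesions for every member.

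Library totals ranged from 2592999 to 7573913 counts. A pair of animals with induced disease had libraries that stood apart and that touch several results below. The lesion of PA7696 was the highest of the 8 induced lesions for all 7 members. In the eutopic library of PA7539, the ratio of 5p to 3p counts lay outside the range of the other 7 induced eutopic libraries in 71 of 107 hairpins, or 66.4%, against 8 to 39 hairpins in each of those other libraries. Lesion and strand results that rest on these animals are also given without them, a choice made after the data were seen. PA7696 was singled out by its lesion levels of these members, the same values that were then fitted. Leaving it out favours calls of lower members by construction, so such calls are no independent support. PA7457, with only 3 members lower in its lesion, was kept. Among marker miRNAs of other cell types, the summed level of 10 epithelial miRNAs (the miR-200 and miR-183 families, miR-203a and miR-375) was 338.2 to 3146 CPM in spontaneous lesions against 7860 to 16896 CPM in spontaneous eutopic endometrium, and 608.0 to 9443 CPM in induced lesions against 9173 to 23946 CPM in induced eutopic endometrium. Over all 12 animals 10 of 10 epithelial miRNAs were lower in lesions, and 4 of 4 smooth muscle, 4 of 4 erythroid, 3 of 4 tested striated muscle, 2 of 2 endothelial and 3 of 6 leukocyte miRNAs were higher (edgeR quasi-likelihood test, adjusted p under 0.05), where 27.1% of all miRNAs tested were lower and 25.6% higher. In spontaneous disease alone the only miRNA called was the erythroid miR-451a (higher), or 0.206% of 485 tested. There the 4 smooth muscle miRNAs, miR-1-3p, miR-133a-3p and miR-133b were higher in the lesion in 3 of 4 animals. In PA6303 they were lower. The striated muscle miRNA miR-206 was at 0 in both eutopic groups and in spontaneous lesions. The part of these cell types in the results below was not tested.

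In spontaneous disease all 7 members were lower in the lesion than in the eutopic endometrium of the same animal in 4 of 4 animals. hsa-miR-424-5p had 782.5, 849.3, 331.2 and 249.0 CPM in the spontaneous lesions of PA5655, PA6303, PA6627 and PA6762, against 2113, 1895, 1510 and 1183 CPM in their eutopic endometria. Its 2 tissues did not overlap. hsa-miR-424-3p, from the other strand of that hairpin, had 87.2, 25.9, 28.8 and 61.1 CPM in these lesions, against 230.7, 97.3, 192.9 and 241.0 CPM in the eutopic endometria. Here the highest lesion and the lowest eutopic value lay close together but still did not overlap. hsa-miR-503-5p had 3.28, 5.22, 5.28 and 1.497 CPM in the lesions, against 14.2, 7.24, 12.4 and 30.6 CPM in the eutopic endometria, with no overlap and the widest gap in PA6762.

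The miR-542 and miR-450 products had the same order of tissues. hsa-miR-542-3p had 24.8, 16.5, 10.6 and 7.18 CPM in the spontaneous lesions of the same 4 animals, against 46.5, 41.4, 43.9 and 25.1 CPM in the eutopic endometria. hsa-miR-450b-5p had 38.0, 22.7, 17.0 and 24.2 CPM in the lesions, against 76.9, 57.6, 67.7 and 70.1 CPM in the eutopic endometria. The tissues did not overlap for either of these 2 members, nor for hsa-miR-542-5p, with 1.17 to 2.81 CPM in lesions and 3.33 to 6.54 CPM in eutopic endometria. hsa-miR-450a-5p was the exception: its lesions (7.92 to 19.7 CPM) overlapped its eutopic endometria (17.6 to 29.2 CPM), although each lesion was below its own eutopic partner. Such a separation was not particular to the cluster. Each of the epithelial miRNAs listed above was also lower in the lesion in all 4 animals, without overlap. The share of all miRNAs that separated in this way was not counted.

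The fitted log2 fold changes in spontaneous disease were -2.02 for hsa-miR-424-3p (SE 0.36), -1.92 for hsa-miR-503-5p (SE 0.74), -1.77 for hsa-miR-424-5p (SE 0.36), -1.53 for hsa-miR-542-3p (SE 0.37), -1.49 for hsa-miR-450b-5p (SE 0.33), -1.21 for hsa-miR-542-5p (SE 0.50) and -0.86 for hsa-miR-450a-5p (SE 0.38). With 4 animals, none of the 7 passed an adjusted p of 0.05 in edgeR's quasi-likelihood test, in which each animal was its own block. Their adjusted p-values ran from 0.0643 for hsa-miR-424-3p, through 0.0724 for hsa-miR-424-5p, 0.0790 for hsa-miR-450b-5p and 0.0870 for hsa-miR-542-3p, to 0.265 for hsa-miR-450a-5p. That test called 0% of 485 miRNAs lower and 0.206% higher, while 51 were lower and 39 higher at an unadjusted p under 0.05. The median of the 7 members was -1.53, beside -0.09 over all miRNAs tested. The call depended on the tool: edgeR's likelihood ratio test with robust dispersions (edgeR-robust, the variant the study names) called 4 members lower (hsa-miR-424-3p, hsa-miR-424-5p, hsa-miR-450b-5p and hsa-miR-542-3p), and the DESeq2 Wald test called these and hsa-miR-503-5p. Over all 485 miRNAs edgeR-robust called 5.77% lower and 3.51% higher, and DESeq2 5.36% lower and 4.54% higher. The study reported a far larger share as differentially expressed between eutopic endometrium and spontaneous lesions. Its model formula is not given, so these calls do not stand for the study's own result.

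**Figure D2:**
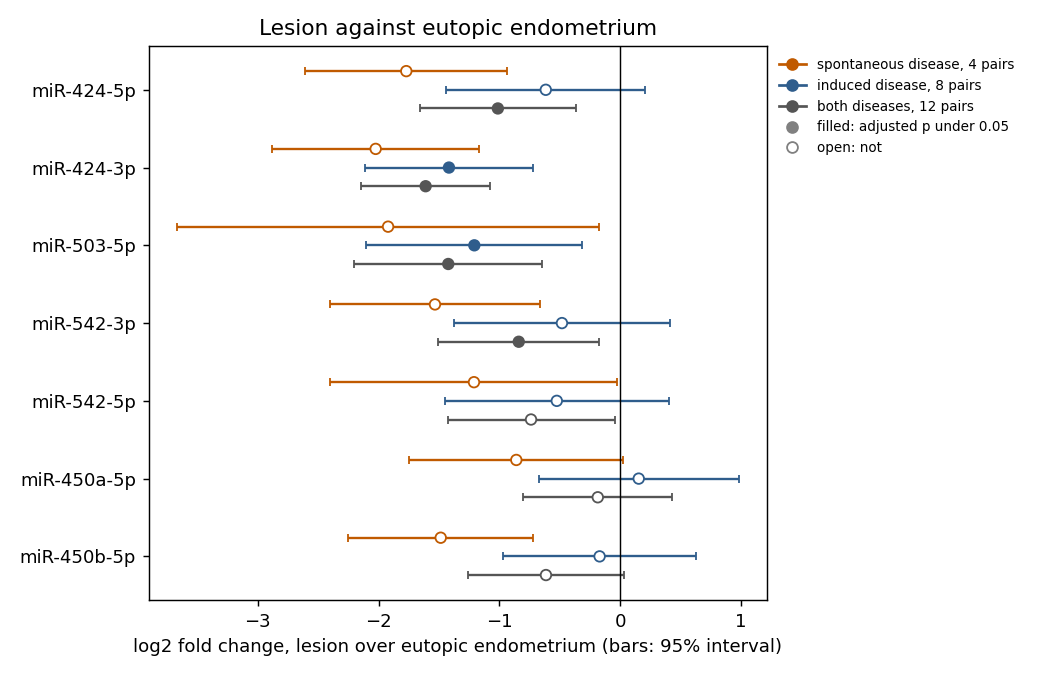
Log2 fold change of each member, lesion over eutopic endometrium, with its 95% interval (edgeR quasi-likelihood fit), for spontaneous disease, induced disease and both together; filled points passed an adjusted p of 0.05. Spontaneous disease gave the most negative estimate for each of the 7 members, and hsa-miR-424-3p and hsa-miR-503-5p were the members that passed in induced disease.

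In induced disease the members parted. hsa-miR-424-3p was lower in the lesion in 8 of 8 animals, and hsa-miR-503-5p in 7 of 8. hsa-miR-424-3p ranged from 32.0 to 307.5 CPM in induced lesions (median 62.3), against 62.3 to 692.4 CPM in induced eutopic endometrium (median 220.9). The groups overlapped, but within animals the difference was -0.26 to -3.46 on the log2 scale, with the widest in PA7539. The fitted change was -1.42 (SE 0.32), with an adjusted p of 0.00502 by edgeR's quasi-likelihood test. hsa-miR-503-5p ranged from 1.42 to 12.8 CPM in induced lesions (median 4.77), against 4.35 to 16.0 CPM in induced eutopic endometrium (median 12.5). Its fitted change was -1.21 (SE 0.41), with an adjusted p of 0.0341 by the same test, and PA7457 alone had the higher level in the lesion. This call was lost when PA7223, PA7254, PA7258, PA7524 or PA7539 was left out, with fitted changes of -0.97 to -1.18 and adjusted p-values of 0.0578 to 0.0776 by that test.

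The 5 other members did not pass in induced disease. hsa-miR-424-5p ranged from 210.3 to 3143 CPM in induced lesions (median 663.2), against 380.6 to 1574 CPM in induced eutopic endometrium (median 1042), with a fitted change of -0.62 (SE 0.37, 6 of 8 animals lower, adjusted p = 0.186 by edgeR). hsa-miR-542-3p ranged from 9.92 to 108.5 CPM in induced lesions (median 21.5), against 11.1 to 41.9 CPM in induced eutopic endometrium (median 35.3), with a fitted change of -0.48 (SE 0.41, 6 of 8 lower, adjusted p = 0.344 by edgeR). hsa-miR-542-5p had a fitted change of -0.53 (SE 0.42, 6 of 8 lower, adjusted p = 0.320 by edgeR). For the miR-450 products the 2 tissues lay closest. hsa-miR-450a-5p had a median of 17.8 CPM in induced lesions and 19.3 CPM in induced eutopic endometrium, and was lower in the lesion in 4 animals and higher in 4 (fitted change 0.15, SE 0.38, 95% interval -0.67 to 0.98). hsa-miR-450b-5p had a median of 44.2 CPM in induced lesions and 67.1 CPM in induced eutopic endometrium (fitted change -0.17, SE 0.36, 95% interval -0.97 to 0.63). Thus 2 of 7 members were lower and none higher, in a comparison in which 23.1% of 507 miRNAs were lower and 20.7% higher. The median of the members was -0.53, beside -0.14 over all miRNAs tested.

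PA7696 had 132.7 CPM of hsa-miR-450a-5p in its lesion against 23.7 CPM in its eutopic endometrium, and 291.2 against 90.1 CPM of hsa-miR-450b-5p. Of its 7 members, 5 were higher in the lesion and 2, hsa-miR-424-3p and hsa-miR-503-5p, were lower. In PA7539, hsa-miR-450a-5p, hsa-miR-450b-5p and hsa-miR-542-3p were higher in the lesion and the other 4 members lower. Without both animals hsa-miR-542-3p (-1.03, adjusted p = 0.0155 by edgeR) and hsa-miR-450b-5p (-0.68, adjusted p = 0.0389 by edgeR) passed along with hsa-miR-424-3p (-1.16, adjusted p = 0.00624 by edgeR). hsa-miR-503-5p kept its fitted change (-1.21) with an adjusted p of 0.0509 by edgeR, and hsa-miR-450a-5p changed sign to -0.29 without passing. That fit called 19.1% of 488 miRNAs lower. Because PA7696 was picked for its high lesion levels of these members, the added calls follow in part from that choice.

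**Figure D3:**
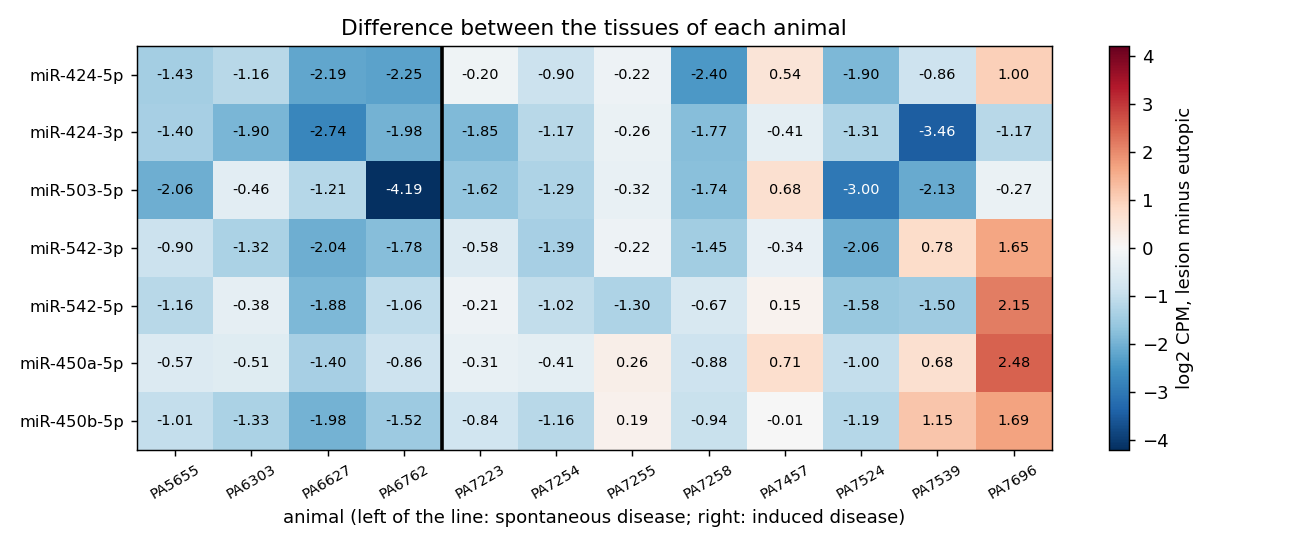
Difference between the lesion and the eutopic endometrium of each animal (log2 CPM, lesion minus eutopic) for the 7 members, blue where the lesion was lower and red where it was higher. The 4 animals with spontaneous disease are blue throughout, while among the 8 with induced disease the red cells lie in PA7696 (5 members), PA7457 (4), PA7539 (3) and PA7255 (2).

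Read by animal, all 7 members were lower in the lesion in each of the 4 animals with spontaneous disease and in 4 of the 8 with induced disease (PA7223, PA7254, PA7258 and PA7524). PA7255 had 5 members lower, PA7539 had 4, PA7457 had 3 and PA7696 had 2. Members of 1 animal share its libraries and are not replicates.

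Over all 12 pairs, 4 of 7 members were lower in lesions and none higher. The combined fit called 27.1% of 527 miRNAs lower and 25.6% higher. Scaled by library totals alone it called 58.6% lower and 7.21% higher, with a median of -0.98 over all miRNAs, and then all 7 members were called lower. hsa-miR-424-3p was lower in 12 of 12 animals (log2 fold change -1.61, SE 0.25, adjusted p = 3.03e-04 by edgeR), the most constant change among the members. hsa-miR-503-5p was lower in 11 of 12 (-1.42, SE 0.37, adjusted p = 0.00498 by edgeR). hsa-miR-424-5p was lower in 10 of 12 (-1.01, SE 0.30, adjusted p = 0.0123 by edgeR), as was hsa-miR-542-3p (-0.84, SE 0.31, adjusted p = 0.0352 by edgeR). The call of hsa-miR-542-3p was lost without PA7254, PA7258, PA7524, PA6303, PA6627 or PA6762 (fitted changes -0.72 to -0.81, adjusted p 0.0618 to 0.0752 by edgeR). hsa-miR-542-5p (-0.74, adjusted p = 0.0664 by edgeR), hsa-miR-450b-5p (-0.61, adjusted p = 0.0963 by edgeR) and hsa-miR-450a-5p (-0.19, adjusted p = 0.598 by edgeR) did not pass. All 7 passed without PA7696 and PA7539, with changes of -0.52 for hsa-miR-450a-5p to -1.51 for hsa-miR-424-3p, in a fit that called 27% of 515 miRNAs lower. Leaving out PA7696, picked for its high lesion levels of the members, favours this outcome, so it is no independent support. The median of the members was -0.84 in the fit with all animals, beside -0.14 over all miRNAs tested.

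The 2 diseases were then compared in the same tissue. Between lesions, all 7 estimates were lower in spontaneous disease, from -0.51 for hsa-miR-503-5p to -1.51 for hsa-miR-450b-5p (95% interval -2.90 to -0.12), and none passed. Of all miRNAs tested, 48.8% had an estimate below 0. This direction was not particular to the cluster. The 10 epithelial miRNAs were all below 0 too, with a median of -1.88 beside -0.98 for the members. hsa-miR-450b-5p ranged from 17.0 to 38.0 CPM in spontaneous lesions (median 23.5) and from 28.3 to 291.2 CPM in induced lesions (median 44.2), and its groups overlapped. Its adjusted p was 0.603 by edgeR, in a comparison in which 0% of 467 miRNAs were called and 37 had an unadjusted p under 0.05. Without PA7696 the estimates of the 7 members shrank to between -0.12 and -0.74. Between eutopic endometria, hsa-miR-424-5p had 1183 to 2113 CPM in spontaneous disease (median 1702) and 380.6 to 1574 CPM in induced disease (median 1042). The difference of 0.69 (SE 0.30, 95% interval 0.05 to 1.33) had an adjusted p of 0.401 by edgeR. The other 6 members lay between -0.37 and 0.43 with intervals that include 0, and the comparison called 0% of 507 miRNAs, with 54 at an unadjusted p under 0.05. edgeR-robust and DESeq2 called no member in either tissue. The share of all miRNAs that these 2 tests called there is not given here.

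Whether the lesion effect itself differed between the diseases was tested as an interaction. All 7 estimates were negative, from -0.61 for hsa-miR-424-3p to -1.31 for hsa-miR-450b-5p (SE 0.54, 95% interval -2.47 to -0.15), so that the lesion minus eutopic difference was estimated as more negative in spontaneous than in induced disease. Of all miRNAs tested, 51.8% had a negative estimate. The 10 epithelial miRNAs were all negative too, with a median of -1.31 beside -1.01 for the members. No member passed (adjusted p = 0.956 for each by edgeR), 0% of 527 miRNAs were called and 16 had an unadjusted p under 0.05. edgeR-robust and DESeq2 also called no member, and their share over all miRNAs is not given here either. Without PA7696 and PA7539 the estimates lay between -0.44 and -0.91. The wide intervals do not show that the diseases act alike.

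The strands of a hairpin can be compared within a library, where scaling between libraries cancels. miR-424 was mainly a 5p miRNA. The 5p strand made up 89.8% ± 7.01 of its counts in spontaneous lesions and 89.3% ± 4.96 in spontaneous eutopic endometrium (SD, n = 4 each), and 89.1% ± 6.09 in induced lesions and 80.7% ± 14.6 in induced eutopic endometrium (SD, n = 8 each). The induced eutopic libraries of PA7539 (50.5%) and PA7696 (69.4%) were the lowest of all 24. On the log2 scale the 5p to 3p ratio was 0.62 higher in lesions than in eutopic endometrium over all pairs (8 of 12 animals, exact sign-flip test p = 0.0679, adjusted p = 0.417 over 10 strand tests, two-sided). In induced disease it was 0.81 higher (6 of 8 animals, exact p = 0.125). In spontaneous disease it was 0.25 higher (2 of 4 animals, exact p = 0.5), where 4 pairs cannot give a p below 0.125. Without PA7696 and PA7539 the difference was 0.27 over all pairs (6 of 10 animals, exact p = 0.271) and 0.28 in induced disease (4 of 6 animals, exact p = 0.5).

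miR-542 was mainly a 3p miRNA. Its 5p strand made up 12.8% ± 3.43 of counts in spontaneous lesions and 10.4% ± 2.08 in spontaneous eutopic endometrium (SD, n = 4 each), and a mean of 14.9% in induced lesions (range 5.98% to 22.2%) and 16.4% in induced eutopic endometrium (range 9.92% to 43.3%, n = 8 each). PA7539 again stood out, with a 5p share of 43.3% in its eutopic library against 9.92% to 15.1% in the other 7. The log2 5p to 3p ratio of miR-542 differed by -0.02 between induced lesions and induced eutopic endometrium (exact sign-flip test p = 0.953), and by 0.26 without PA7696 and PA7539 (exact p = 0.375). No strand test passed (smallest adjusted p = 0.417). miR-503 used both strands about equally on average, with mean 5p shares of 50.6% in spontaneous lesions, 52.9% in spontaneous eutopic endometrium, 52.1% in induced lesions and 52.6% in induced eutopic endometrium. Single libraries varied widely, from 26.3% to 71.2% in lesions and from 33.9% to 60.5% in eutopic endometria. Counts of both strands were as few as 15 in 1 library.

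**Figure D4:**
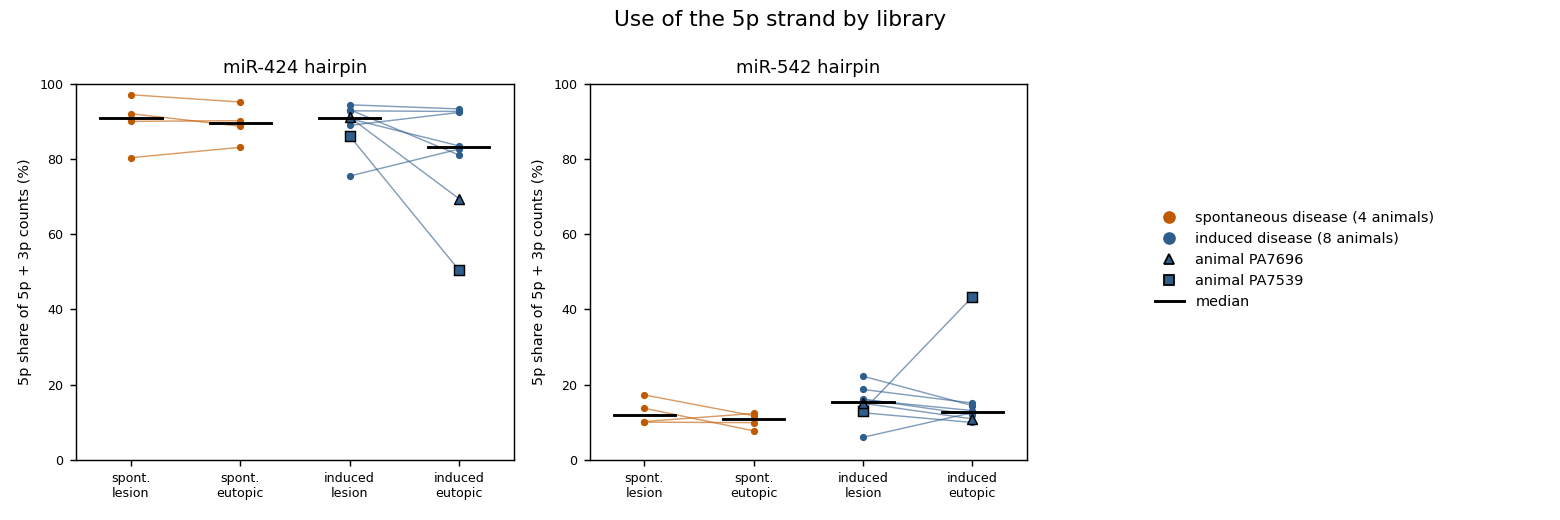
Share of the 5p strand in the counts of both strands (%) for the miR-424 and miR-542 hairpins in each library, with the lesion left of the eutopic endometrium within each disease, lines joining the tissues of 1 animal and black bars at the medians. miR-424 lies mostly above 75% and miR-542 mostly below 25%, and the eutopic library of PA7539 (square) is the farthest from the others for both.

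Members were next compared by their lesion minus eutopic differences over the 12 animals. Pearson's r ran from 0.07 to 0.96 over the 21 pairs of members (median 0.58), and 9 pairs had an adjusted permutation p under 0.05 by r and 6 by Spearman's rho. How many pairs of other miRNAs would pass over the same 12 animals was not counted. The members share libraries and tissue, so these counts alone do not mark the cluster out. The miR-542-3p and miR-450 products moved most closely together. hsa-miR-542-3p and hsa-miR-450b-5p had r = 0.96 and rho = 0.90 (permutation p = 1e-05 for r, the smallest the permutations can give, and 1.7e-04 for rho; adjusted 1.05e-04 and 0.00119). hsa-miR-542-3p and hsa-miR-450a-5p had r = 0.95 and rho = 0.94 (adjusted permutation p 1.05e-04 and 6.30e-04). hsa-miR-450a-5p and hsa-miR-450b-5p had r = 0.94 and rho = 0.85 (adjusted permutation p 2.80e-04 and 0.00514). Without the 2 animals farthest from the median of the first-named member of each pair, r was 0.88, 0.90 and 0.93. Within the 8 induced animals it was 0.97, 0.94 and 0.92. hsa-miR-424-5p followed hsa-miR-450a-5p (r = 0.87, rho = 0.92) and hsa-miR-542-3p (r = 0.81, rho = 0.84).

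hsa-miR-424-3p did not pass with any member, including the other strand of its own hairpin (r = 0.46, rho = 0.50, adjusted permutation p 0.190 and 0.150). It had its lowest r, 0.07, with hsa-miR-542-3p. The relation of hsa-miR-542-5p with hsa-miR-450a-5p (r = 0.79) fell to 0.11 without the 2 animals farthest from the median of hsa-miR-542-5p. The full value thus leaned on them, although leaving out extreme values narrows the range and can lower r by itself. Without PA7696 alone, 4 of the 21 pairs passed, and without PA7696 and PA7539 together 11 passed.

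**Figure D5:**
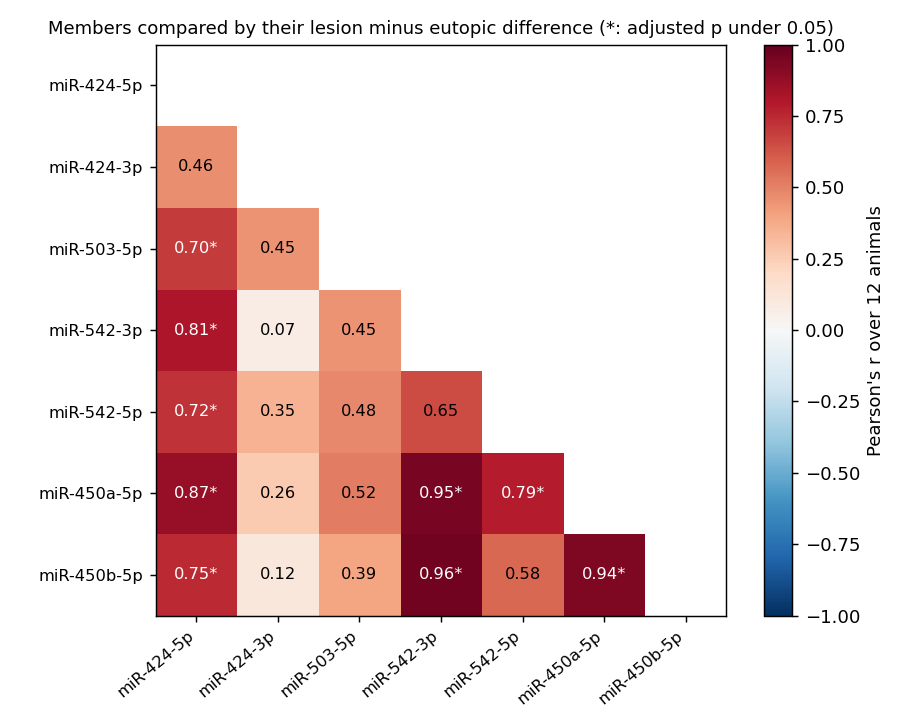
Pearson's r over 12 animals between the lesion minus eutopic differences (log2 CPM) of each pair of members, with asterisks where the adjusted permutation p was under 0.05. The darkest block joins hsa-miR-542-3p, hsa-miR-450a-5p and hsa-miR-450b-5p (0.94 to 0.96), and the lowest values are those of hsa-miR-424-3p with the miR-542 and miR-450 products (0.07 to 0.35).

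The likeness of whole profiles was measured as the root mean square distance between log2 CPM values over the 24 libraries, each miRNA centred on its own mean. Of 298 miRNAs with a mean log2 CPM of at least 3, the nearest to hsa-miR-424-5p were hsa-miR-542-3p (0.51), hsa-miR-450a-5p (0.68) and hsa-miR-450b-5p (0.69). The nearest miRNAs outside the cluster were miR-192-5p (0.74), miR-455-5p (0.79), miR-148a-3p (0.83), miR-32-5p (0.84) and miR-196b-3p (0.84), beside a median of 1.26 over all candidates. A flat profile would lie at 1.05, the SD of hsa-miR-424-5p itself. hsa-miR-424-3p came only at rank 60, with a distance of 1.07.

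Other products of these hairpins were measured as well. miR-503-3p was lower in the lesion in 12 of 12 animals (log2 fold change -1.41, adjusted p = 8.71e-04 by edgeR), with 2.20 to 4.69 CPM in spontaneous lesions against 7.24 to 22.3 CPM in spontaneous eutopic endometrium, and 1.598 to 16.6 CPM in induced lesions against 8.23 to 20.96 CPM in induced eutopic endometrium. miR-450a-1-3p, miR-450a-2-3p and miR-450b-3p never exceeded 6 counts in a library and did not pass the filter. The miR-15/16 family, whose seed resembles that of miR-424-5p but whose genes lie elsewhere, did not show such a drop. Of its 6 listed members 5 were tested, none was called in any comparison, and their changes over all 12 pairs lay between -0.33 and 0.19. The sixth, miR-6838-5p, was at 0 in every library. The miR-106a to miR-363 cluster is a neighbour on the X chromosome in human, and 4 of its mature miRNAs, not all, were listed. Of these 4, 3 were lower over all pairs: miR-20b-5p (-2.04, adjusted p = 0.00152 by edgeR), miR-363-3p (-1.82, adjusted p = 3.03e-04 by edgeR) and miR-106a-5p (-1.37, adjusted p = 0.00403 by edgeR). These calls stand beside the 27.1% of all miRNAs called lower. In spontaneous disease the 3 listed miRNAs of that cluster that were tested also had negative changes (such as -1.61 for miR-20b-5p and -1.01 for miR-363-3p). None passed, in the comparison that called 0% of miRNAs lower.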

How the data were processed

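Total RNA was extracted with Trizol from lesions and eutopic endometrium and sequenced from Illumina TruSeq small RNA libraries. The authors trimmed reads with Trim Galore 0.3.3, quantified them against human miRNAs with miRDeep2, and deposited raw counts per mature miRNA and precursor (2888 rows); per the labels they used edgeR 3.22.5. The sources used here do not give the model formula or how reads with several matches were counted. The precursor with the highest total stood for each miRNA; hsa-miR-450a-5p is listed under 2 precursors that differ by at most 2 counts in a library.

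Tests on the deposited counts used edgeR 4.0.16 under R 4.3.3 (TMM, robust quasi-likelihood test, at least 2 CPM in at least 2 libraries, Benjamini-Hochberg over all miRNAs, threshold 0.05). The animal, given by the labels, was a block where both tissues were compared. Only the libraries compared entered each fit. DESeq2 1.42.0, other scalings, other filters, summed precursors, no block and leaving out animals were alternatives. Strand ratios, log2((5p + 1)/(3p + 1)), were compared by exact permutation tests, and members by 100000 permutations (SciPy 1.17.1). Log2 CPM used a prior count of 1. Only the edgeR quasi-likelihood test was checked on simulated counts, which were drawn without differences between animals. The members, the lists of related and marker miRNAs and the tests were chosen with earlier results of these data known. The text names all 7 members, the listed miRNAs of the hairpins, family and neighbouring cluster, and the 5 outside miRNAs nearest in profile to hsa-miR-424-5p. Libraries held 2592999 to 7573913 counts, and PCR reads without molecular identifiers are not independent molecules.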

Additional observations from a re-analysis of the deposited data

Results flagged for a closer look

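Of 36 sets of values tested (each member's level and the miR-424 and miR-542 strand ratios in each group), 9 held an animal far from the others by Dixon's test. Chance gives about 1 in 20 for independent sets. These sets are not independent, because the members share libraries. Most flags fell on the lesion of PA7696 and the eutopic library of PA7539, so the count cannot be set against that rate. In induced lesions PA7696 was far above the other 7 animals for hsa-miR-542-3p (108.5 CPM against 9.92 to 26.7), hsa-miR-450a-5p (132.7 CPM against 9.92 to 30.4) and hsa-miR-450b-5p (291.2 CPM against 28.3 to 59.6). In induced eutopic endometrium PA7539 was far below the other 7 for hsa-miR-542-3p (11.1 CPM against 30.4 to 41.9), hsa-miR-450a-5p (8.70 CPM against 17.2 to 31.0) and hsa-miR-450b-5p (20.4 CPM against 52.1 to 90.1). Its log2 ratio of miR-542 5p to 3p counts, -0.38, lay above the -3.15 to -2.46 of the other induced eutopic libraries. In induced lesions the same ratio was lowest in PA7255, at -3.79 against -2.61 to -1.77. hsa-miR-503-5p was lowest in the induced eutopic endometrium of PA7457, at 4.35 CPM against 9.15 to 16.0 in the others.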

How the results depend on the processing

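Of 798 recomputed fold changes of members, 731 kept their direction and their side of the threshold, 36 came to pass it, 14 no longer passed and 17 changed sign. With library totals alone, 6 members were called in induced disease, 2 in spontaneous disease and 7 over all pairs, and 18 of 21 pairs of members co-varied. That scaling put the median change of all miRNAs at -1.10, -0.65 and -0.98 in these comparisons, and called 58.0% lower and 6.51% higher in induced disease. In spontaneous disease it called 2.89% of all miRNAs lower and 0% higher, and over all pairs 58.6% lower and 7.21% higher. In spontaneous disease 5 members were called without the filter, 4 by edgeR-robust and 5 by DESeq2, which called 3.92%, 5.77% and 5.36% of all miRNAs lower. Over all pairs 2 were called with no replicate block (hsa-miR-424-3p and hsa-miR-503-5p) and 7 without PA7696 and PA7539, where 23.7% and 27% of all miRNAs were lower. Leaving out 1 animal gave 1 to 3 calls in induced disease and 4 to 11 co-varying pairs. The share of all miRNAs called in those fits is not given here.

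hsa-miR-450a-5p in induced disease was -0.84 with library totals, -0.13 with totals without miR-143-3p, -0.29 without PA7696 and PA7539, and -0.13 to 0.35 leaving out 1 animal. Over all pairs it was 0.31 with no replicate block. hsa-miR-450b-5p in induced disease was 0.15 with no replicate block and -0.41 to 0.00698 leaving out 1 animal. Between eutopic endometria (spontaneous over induced), library totals gave -0.070 for hsa-miR-542-3p, -0.27 for hsa-miR-450a-5p and -0.18 for hsa-miR-450b-5p, and totals without miR-143-3p gave -0.14 for hsa-miR-450a-5p and -0.064 for hsa-miR-450b-5p. There, leaving out 1 animal gave -0.10 to 0.19 for hsa-miR-450a-5p, -0.072 to 0.17 for hsa-miR-450b-5p, -0.54 to 0.00718 for hsa-miR-424-3p and -0.12 to 0.59 for hsa-miR-503-5p. Leaving out 1 animal, the log2 strand ratio ranged from -0.14 to 0.29 for miR-542 in induced disease (0.26 without PA7696 and PA7539) and from -0.27 to 0.73 for miR-424 between lesions. The causes were not tested. Counts as low as 5 limit hsa-miR-503-5p and hsa-miR-542-5p.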
